A study of Homo sapiens with 12 samples.

Results

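The comparison described here is of Huh7 cells given disulfiram together with thalidomide against Huh7 cells given thalidomide alone, and so asks what disulfiram added when thalidomide was present in both groups. Each group had 3 libraries, which are 6 of the 12 libraries of the series. The others are 3 libraries of a DMSO control and 3 of disulfiram alone. Huh7 is an established line grown from a human hepatocellular carcinoma. The genes compared were all features with at least 1 TPM (a length-scaled share of all transcripts in a library) in at least 3 of the 6 libraries, which kept 14566 of the 59191 features in the table. No unit of dose, duration of treatment or read depth is stated in the sources used here. The labels call the libraries single-cell and describe tumour tissue, while the table holds 1 column per library of a cell line, so how the libraries were made is not known. The labels do not say whether the 3 libraries of a group are separate cultures. The p-values therefore rest on the spread between libraries, which may be technical.

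Disulfiram is a thiol-reactive drug that inhibits aldehyde dehydrogenases. Its metabolite diethyldithiocarbamate binds copper, and the copper complex targets NPLOC4, which helps the p97 segregase feed proteins to the proteasome. Thalidomide acts through cereblon, which picks the substrates of a CUL4 ubiquitin ligase, and changes which proteins the ligase marks. Metals carried into cells are sensed by MTF1, which binds metal response elements in metallothionein promoters, and misfolded proteins release HSF1, which binds heat shock elements. Sterol synthesis is run by SREBP factors, amino acid supply by ATF4, and the liver's iron hormone hepcidin by BMP and SMAD signals.

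With disulfiram added to thalidomide, 3854 genes rose (26.5% of those tested) and 1121 fell (7.7%) at an adjusted p below 0.05 in limma, and changes of at least 2-fold were seen in 532 and 111 of these, respectively. The largest rises were in metallothionein, small heat shock and HSP70 genes, and the largest fall of all was in hepcidin. Genes of lipid synthesis and of secreted liver proteins fell in numbers above the share of all genes. Fold changes are log2 differences of TPM + 1, given ± SE, and the median over all tested genes was 0.22, above 0. Scaling by the median of ratios, which removes that shift, gave 1881 genes higher (12.9%) and 2258 lower (15.5%). The balance of rises and falls therefore depended on the scaling, and list counts are given with the alternatives where these move them. The fold changes also followed the GC content of the transcripts, as described further down, and a GC correction gave 1784 higher (12.2%) and 1981 lower (13.6%). Each list count below is to be read against the shares of all genes under the same setting. Leaving out 1 library changed the counts most for the first combination library (1726 higher and 622 lower), the third combination library (1674 and 596) and the first thalidomide library (1789 and 732). List counts without 1 of these libraries are to be read against these lower counts of all genes. Between 13711 and 14207 features had at least 1 TPM in the thalidomide libraries and between 14681 and 15038 in the combination libraries.

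Metallothioneins, small cysteine-rich proteins that hold zinc and copper, made up the group with the largest change. Of the 10 listed genes, counting the zinc exporter SLC30A1, 9 rose and 0 fell (against 26.5% and 7.7% of all genes), with a median of 1.56 against 0.22 over all genes. MT1B was at 0.78, 0 and 0 TPM with thalidomide and at 193.63, 142.86 and 170.83 TPM with the combination (7.12 ± 0.21, adjusted p = 2.82e-09). It was all but unlisted without disulfiram. MT1M went from 0.75, 1.07 and 3.53 to 105.68, 85.4 and 116.55 TPM (5.34 ± 0.31, adjusted p = 1.94e-06). MT1G, already present with thalidomide at 40.32, 28.59 and 58.79 TPM, was at 563.52, 534.28 and 574.09 TPM (3.74 ± 0.26, adjusted p = 8.25e-06). In each of these the 2 groups lay far apart and the combination libraries lay close together. MT1A rose by 2.47 ± 0.29, MT2A by 1.45 ± 0.26, MT1F by 1.19 ± 0.16, and MT1E by 1.17 ± 0.28. MT2A was the most abundant of them, at 392.49, 219.09 and 335.74 TPM with thalidomide and 887.25, 749.82 and 891.44 TPM with the combination. MT1H was scarce, at 0, 0 and 0.32 TPM and 3.16, 1.89 and 2.56 TPM (1.67 ± 0.35, adjusted p = 0.00542). MT1X was the member that did not pass, with 183.04, 118.31 and 147.19 TPM against 205.47, 170.56 and 222.93 TPM (0.43 ± 0.22, adjusted p = 0.146). SLC30A1 rose from 3.82, 3.93 and 5.94 to 11.23, 6.3 and 10.75 TPM (0.89 ± 0.26, adjusted p = 0.022). It did not pass after the GC correction (0.27, adjusted p = 0.224) or when any of the combination 1, combination 3, thalidomide 1 or thalidomide 2 libraries was left out (adjusted p up to 0.0898). The summed TPM of the list was 493.39 to 757.14 with thalidomide and 2042.5 to 2406.4 with the combination. The metallothionein genes stand side by side on chromosome 16 in hg38, from MT2A (56608199 to 56609497) over MT1M (56632233 to 56633986), MT1B (56651899 to 56653204) and MT1G (56666731 to 56668065) to MT1X (56682424 to 56684196). They are near copies of each other, and the pseudogene MT1L between them also rose (3.16 ± 0.26), so how reads were divided among them is uncertain.

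The 250 bases before the start site are shown for MT1B, the member with the largest rise, and for MT1H, which was added after its values were seen because it holds the most matches. Both are on the plus strand and taken from RefSeq (GRCh38.p14), MT1B at chr16:56651636-56651885 and MT1H at chr16:56669564-56669813. Capitals mark the metal response element core, searched as TGCGCNC and TGCACNC on both strands, and no matches overlap in these 2 sequences.
MT1B: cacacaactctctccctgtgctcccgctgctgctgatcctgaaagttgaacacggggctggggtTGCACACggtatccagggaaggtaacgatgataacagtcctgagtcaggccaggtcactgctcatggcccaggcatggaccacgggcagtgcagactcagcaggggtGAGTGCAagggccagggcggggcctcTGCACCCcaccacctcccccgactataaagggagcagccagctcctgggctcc
MT1H: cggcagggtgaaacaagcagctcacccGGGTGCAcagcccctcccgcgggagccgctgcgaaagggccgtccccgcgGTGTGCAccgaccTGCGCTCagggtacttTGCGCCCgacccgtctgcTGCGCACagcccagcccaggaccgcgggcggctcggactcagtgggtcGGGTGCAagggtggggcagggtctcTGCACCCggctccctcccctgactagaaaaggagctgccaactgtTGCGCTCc
MT1B held 3 matches and MT1H 8. All 5 promoters of the list that have an entry, which are those of MT1B, MT1H, MT1X, MT2A and SLC30A1, held at least 1, against 24.7% of 27305 promoters of the same length. MT1X, which did not pass the test, held 4, MT2A held 7 and SLC30A1 held 1. The paired heat shock units described next were in 0 of the 5.

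Heat shock genes were the second group with very large rises, but only part of the chaperone list moved. Of 26 tested members, 12 rose and 1 fell (median 0.62), against 26.5% and 7.7% of all genes. After the GC correction 10 rose and 4 fell (median 0.12), against 12.2% and 13.6%, so the corrected falls were near the share of all genes. CRYAB, the small heat shock protein alpha-B crystallin, was at 2.96, 1.86 and 1.94 TPM with thalidomide and at 305.24, 300.92 and 319.03 TPM with the combination (6.59 ± 0.26, adjusted p = 3.4e-08). HSPA6, a strictly inducible HSP70, went from 0.19, 0.09 and 0.12 to 76.3, 44.84 and 66.24 TPM (5.77 ± 0.18, adjusted p = 3.44e-09). CRYAB lies on chromosome 11 at 111908565 to 111923722 and HSPA6 on chromosome 1 at 161524540 to 161526910 in hg38. The main inducible HSP70 gene HSPA1A was at 102.99, 53 and 89.07 TPM and at 333.79, 225.55 and 303.74 TPM (1.84 ± 0.23, adjusted p = 0.000343). HSPA1B (1.22 ± 0.17) and HSPA1L (1.32 ± 0.15), its neighbours on chromosome 6, rose as well, and since HSPA1A and HSPA1B are near identical their separate values are uncertain. The co-chaperones DNAJB4 (1.26), HSPH1 (1.26), DNAJB1 (0.75) and BAG3 (0.74) also rose, HSPH1 not without combination 1 (adjusted p = 0.0562). The abundant constitutive chaperones did not pass. HSPA8 was at 580.62, 493.11 and 798.73 TPM against 784.07, 473.86 and 702.09 TPM (0.06 ± 0.20, adjusted p = 0.821). HSP90AB1 was at 736.19, 715.77 and 773 TPM against 718.82, 646.3 and 713.75 TPM (-0.10 ± 0.06, adjusted p = 0.229). HSP90AB1 fell after the GC correction (-0.37, adjusted p = 0.00294) and under median-of-ratios scaling (-0.33, adjusted p = 0.0106). HSF1 itself was at a fold change of -0.01 and did not pass.

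The HSPA6 promoter, chosen after its values were seen because CRYAB has no entry in the promoter table, lies at chr1:161524290-161524539 on the plus strand (RefSeq, GRCh38.p14). Capitals mark paired heat shock units, searched as GAANNTTC and TTCNNGAA, each of which reads the same pattern on both strands, and matches may run into each other.
HSPA6: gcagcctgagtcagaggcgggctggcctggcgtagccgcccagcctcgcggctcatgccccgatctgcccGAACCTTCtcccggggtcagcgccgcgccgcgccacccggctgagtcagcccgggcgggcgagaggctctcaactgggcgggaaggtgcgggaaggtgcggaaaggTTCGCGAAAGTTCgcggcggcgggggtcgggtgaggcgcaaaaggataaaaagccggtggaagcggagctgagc
It held 3 matches. Of the 24 heat shock promoters with an entry, 10 held a match (41.7%), against 11.7% of all promoters, and the metal response core was in 8 of the 24 (33.3%, against 24.7%). Not every gene that rose held a match to the paired units. HSPA8, which did not pass, held 4, HSPA1A, HSPA1B and HSPA1L held 1 each, and DNAJB4, HSPH1, DNAJB1 and BAG3 held 0.

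**Figure D1:**
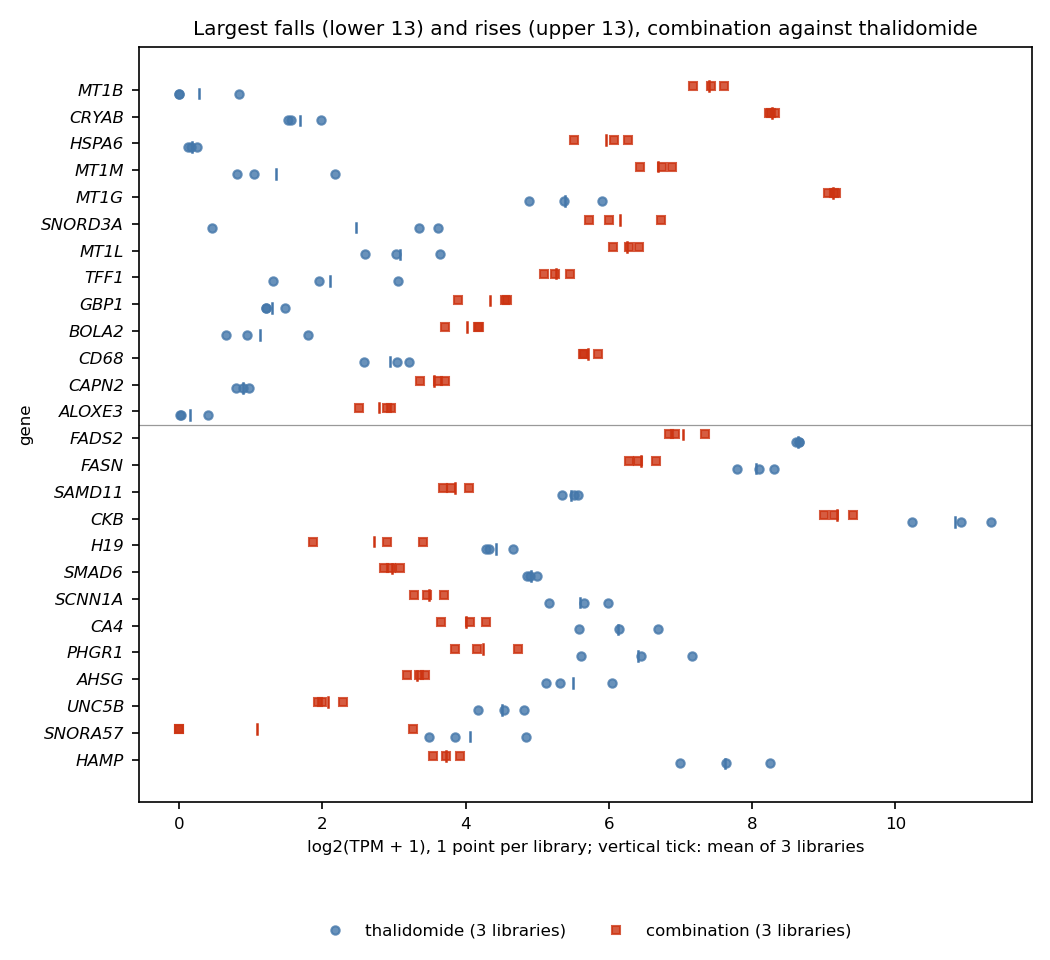
Genes with the largest falls (lower 13) and rises (upper 13) between combination and thalidomide, with log2(TPM + 1) of each library on the horizontal axis, circles for thalidomide, squares for the combination and a tick at each mean of 3. No gene's groups overlap, which the choice of genes required, and MT1B, CRYAB and HSPA6 lie furthest apart.

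Genes of the interferon response, of antigen presentation and of NF-kB signalling rose. Of the 19 tested interferon-stimulated genes 17 rose and 0 fell (median 0.59), against 26.5% and 7.7% of all genes. After the GC correction 10 rose and 0 fell, against 12.2% and 13.6% of all genes, and 11 rose without combination 1, combination 3 or thalidomide 1. A further 6 listed genes of this kind were below the expression filter. GBP1, a guanylate-binding protein that attacks intracellular pathogens, went from 1.32, 1.79 and 1.31 to 22.93, 13.88 and 22.48 TPM (3.04 ± 0.26, adjusted p = 3.49e-05). IRF9, the DNA-binding part of the interferon factor ISGF3, was at 6.24, 7.64 and 8.05 TPM with thalidomide and at 21.53, 23.26 and 23.82 TPM with the combination (1.53 ± 0.14, adjusted p = 5.91e-05). Its partner STAT2 rose by 0.59. GBP2 rose by 1.21 ± 0.18 and OAS3, a sensor of double-stranded RNA, by 1.17 ± 0.14. MHC class I presentation had 17 tested genes, of which 11 rose and 0 fell (median 0.55), 10 after the GC correction and 5 under median-of-ratios scaling. B2M, the light chain of every class I molecule, was at 557.66, 636.09 and 675.43 TPM and at 1373.56, 959 and 1214.72 TPM (0.91 ± 0.12, adjusted p = 0.00061). The peptide transporter TAP1 (0.85 ± 0.11) and the immunoproteasome subunit PSMB9 (0.91 ± 0.22) rose. HLA-G was at 0, 0.07 and 0.1 TPM and then at 3.41, 3.28 and 2.92 TPM (1.99 ± 0.17, adjusted p = 3.82e-05), and class I genes resemble each other closely enough that its reads may belong to another one. Of 20 genes of the NF-kB list 13 rose and 1 fell (median 0.38), 11 and 1 after the GC correction and 6 and 1 under median-of-ratios scaling. Without combination 3 it was 6 and 0, and without combination 1 it was 8 and 0. The inhibitor of apoptosis BIRC3 rose from 0.61, 0.48 and 0.36 to 6.78, 2.48 and 4.36 TPM (1.83 ± 0.29, adjusted p = 0.00141) and the feedback regulator TNFAIP3 from 8.33, 9.46 and 8.63 to 22.14, 19.51 and 21.41 TPM (1.17 ± 0.13, adjusted p = 0.000214). The chemokine genes CXCL8 (1.29 ± 0.30) and CXCL5 (1.10 ± 0.25) rose but did not pass after the GC correction (adjusted p = 0.0733 and 0.0905), and CXCL1 fell by 0.45, a call lost in 5 of 6 fits that left out a library (adjusted p up to 0.15).

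Immediate early genes, the first transcription factors made after a stimulus, rose with the combination. Of 21 tested members of the immediate early and MAPK feedback list 12 rose and 1 fell (median 0.46), against 26.5% and 7.7% of all genes. After the GC correction 12 rose and 2 fell, against 12.2% and 13.6% of all genes. FOS was at 2.96, 2.86 and 2.26 TPM with thalidomide and at 20.39, 20.47 and 19.58 TPM with the combination (2.52 ± 0.19, adjusted p = 1.78e-05). FOSB rose by 2.51 ± 0.19, FOSL1 by 2.06 ± 0.24 and EGR1 by 2.00 ± 0.28. The FOS partners JUN (0.69) and JUNB (0.46) rose less, and the MAPK phosphatase DUSP5 rose by 1.57. SPRY4, an inhibitor of growth factor signalling, fell by 0.62. JUNB and SPRY4 lost the call in some fits with a library left out (adjusted p up to 0.0838 and 0.0697). The MAPK targets DUSP6 (-0.03) and DUSP4 (0.07) did not pass. The glycolysis and hypoxia list had 30 tested genes, and 15 rose while 2 fell (median 0.39), against 10 and 2 after the GC correction and 7 and 3 under median-of-ratios scaling. Without combination 1 it was 9 and 2, and without combination 3, thalidomide 1 or thalidomide 3 it was 10 and 2. The members that rose most were ENO2 (1.15 ± 0.36), the mitophagy receptor BNIP3 (1.08 ± 0.21), the pyruvate dehydrogenase kinase PDK1 (1.07 ± 0.22) and hexokinase HK2 (1.06 ± 0.19), of which ENO2 lost the call in 5 of 6 fits without a library (adjusted p up to 0.0921). BNIP3 was at 60.12, 92.25 and 54.27 TPM and at 171.9, 126.59 and 133.67 TPM. The glucose transporter SLC2A1 rose by 1.04, while the glycolytic enzymes GAPDH (-0.56) and PFKL (-0.57) fell and LDHA (0.11) and PKM (-0.06) did not pass. VEGFA was at 0.36 and did not pass.

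Several of the largest rises lie outside the pathway lists. TFF1, a secreted trefoil peptide of mucous epithelia, went from 7.35, 1.48 and 2.86 to 33.09, 42.9 and 37.16 TPM (3.16 ± 0.32, adjusted p = 0.000113). CD68, a lysosomal membrane protein best known from macrophages, went from 8.27, 7.27 and 4.98 to 49.28, 56.45 and 48.92 TPM (2.77 ± 0.27, adjusted p = 6.95e-05). CAPN2, the large subunit of the protease m-calpain, rose by 2.68 ± 0.16 and ALOXE3, an epidermal lipoxygenase, by 2.64 ± 0.22. Of the 15 leukocyte markers checked, 4 were expressed enough to be tested, of which CD68, CD3D (1.67) and LYZ (0.93) rose and CD14 fell by 0.82. LYZ and CD14 lost the call in 3 and 5 of the 6 fits without a library (adjusted p up to 0.0844 and 0.0984). The pan-leukocyte marker PTPRC was at 0 to 0.06 TPM in all 6 libraries, and CD2, MS4A1 and S100A8 were listed at 0 in all of them. The summed leukocyte markers were at 129.87 to 176.99 TPM with thalidomide and 150.76 to 160.5 TPM with the combination, mostly CD14. Endothelial markers summed to 1.66 to 2.51 TPM and 4.24 to 6.17 TPM, nearly all of it PECAM1. Of the small nucleolar RNAs, SNORD3A was at 9.15, 11.26 and 0.37 TPM and then at 51.61, 63.01 and 105.37 TPM (3.68 ± 0.96, adjusted p = 0.0145), and lost the call without combination 3 (adjusted p = 0.0573). BOLA2, an iron-sulfur chaperone, rose by 2.89 ± 0.64 (adjusted p = 0.00745), but it has a near-identical copy, BOLA2B, and its reads cannot be placed with certainty.

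Among the genes that fell, hepcidin stood first. HAMP, which encodes this peptide hormone that lowers iron in plasma, was at 197.11, 303.76 and 126.2 TPM with thalidomide and at 10.63, 12.2 and 14.19 TPM with the combination, a fall by 3.90 ± 0.42 on the log2 scale (adjusted p = 0.00015). The thalidomide libraries differed widely from each other, yet the lowest of them was far above the combination libraries. HAMP lies on chromosome 19 at 35280716 to 35285143 in hg38. Of 21 tested iron handling genes 9 fell and 4 rose (median -0.20), against 7.7% and 26.5% of all genes, and 2 rose without combination 3 or thalidomide 1. SMAD6, an inhibitory SMAD that BMP signalling induces, fell from 28.69, 28.04 and 31.06 to 6.27, 7.49 and 6.73 TPM (-1.95 ± 0.18, adjusted p = 4.82e-05). ID1, another BMP target, fell from 2314.54, 2158.68 and 2261.89 to 1077.53, 1187.46 and 1216.58 TPM (-0.95 ± 0.10, adjusted p = 0.000115). TFR2, an iron sensor of the hepatocyte, fell by 0.94 ± 0.19. SMAD7 did not pass (-0.08 ± 0.13, adjusted p = 0.659), and the ligand gene BMP6 rose by 0.69. The ferritin subunits FTL (-0.49 ± 0.07) and FTH1 (-0.36 ± 0.07) fell. The transferrin receptor TFRC (0.64 ± 0.21) and the iron regulatory protein IREB2 (1.00 ± 0.27) rose, but neither passed after the GC correction (adjusted p = 0.365 and 0.0548) or without combination 3 or thalidomide 1 (adjusted p up to 0.122 and 0.0723). Haem oxygenase HMOX1 was at 33.79, 38.73 and 31.21 TPM against 39.43, 38.32 and 35.82 TPM and did not pass (0.13 ± 0.11, adjusted p = 0.36).

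Genes of cholesterol and fatty acid synthesis fell together. Of 24 cholesterol genes 15 fell and 0 rose (median -0.58), against 7.7% and 26.5% of all genes. Both after the GC correction and under median-of-ratios scaling 20 fell and 0 rose. The enzymes DHCR7 (-1.19 ± 0.14) and MVD (-1.09 ± 0.17) and the SREBP retention protein INSIG1 (-1.05 ± 0.18) fell. SREBF2, the factor that drives this list, fell by 0.57. The list of fatty acid and triglyceride synthesis had 20 tested genes, and 11 fell while 1 rose (median -0.47). Fatty acid synthase FASN fell from 272.69, 314.99 and 219.39 to 76.93, 100.17 and 84.06 TPM (-1.61 ± 0.18, adjusted p = 0.000176). The desaturase FADS2 fell from 402.17, 390.72 and 403.82 to 113.46, 161.91 and 120.37 TPM (-1.61 ± 0.20, adjusted p = 0.000362). The desaturase SCD (-1.23 ± 0.17), the lipase PNPLA3 (-1.19) and the factor SREBF1 (-0.97) fell too. INSIG2 was the member that rose, by 1.55 ± 0.38. The sterol element TCACNCCAC, searched on both strands, was in 1 of the 18 cholesterol gene promoters with an entry (5.56%) and in 0.875% of all promoters.

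Amino acid synthesis genes and the chaperones of the endoplasmic reticulum were lower with the combination. Of 25 tested ATF4 targets 11 fell and 3 rose (median -0.33), against 7.7% and 26.5% of all genes. PHGDH, the first enzyme of serine synthesis, was at 244.09, 323.17 and 303.65 TPM with thalidomide and at 107.47, 118.29 and 102.71 TPM with the combination (-1.39 ± 0.11, adjusted p = 1.78e-05). PYCR1, of proline synthesis, fell by 1.04 ± 0.09 and PSAT1, the next enzyme after PHGDH, by 0.95 ± 0.12. Members that rose were the stress factors ATF3, from 12.33, 19.94 and 13.58 to 50.79, 35.57 and 47 TPM (1.49 ± 0.18, adjusted p = 0.000288), and DDIT3 (0.86), and the receptor VLDLR (0.65). ATF4 itself did not pass (-0.28). The ATF4 element TGATGNAA was in 3 of 21 promoters with an entry (14.3%, against 3.19% of all) and not in that of PHGDH. The 3 were those of ATF3, which rose, of CHAC1, and of ASNS. ASNS fell, a call lost without combination 2, thalidomide 2 or thalidomide 3 (adjusted p up to 0.0641). Of 24 genes of the endoplasmic reticulum list 12 fell and 2 rose (median -0.33), and 16 fell and 0 rose after the GC correction (against 13.6% and 12.2% of all genes). The disulfide isomerase PDIA4 went from 237.19, 208.01 and 258.33 to 107.03, 111.5 and 95.59 TPM (-1.15 ± 0.11, adjusted p = 6.62e-05). HYOU1 (-0.92 ± 0.14), SDF2L1 (-0.87 ± 0.17) and XBP1 (-0.36) fell. The main chaperone of this compartment, HSPA5, did not pass (-0.31), but fell after the GC correction.

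Secreted liver proteins, by which hepatocytes and Huh7 cells are known, fell broadly. Of 26 tested members 16 fell and 1 rose (median -0.76), against 7.7% and 26.5% of all genes. After the GC correction 18 fell and 0 rose, against 13.6% and 12.2%. Without combination 3 it was 10 that fell, in a fit where 596 genes fell in all, against 1121 with every library. In bulk RNA, fewer cells that make a protein and less RNA per cell cannot be told apart. AHSG (fetuin-A) was at 33.89, 64.66 and 38.87 TPM and then at 9.76, 8.11 and 9.19 TPM (-2.17 ± 0.37, adjusted p = 0.00211). TTR, the carrier of thyroid hormone, was at 82.87, 123.31 and 128.83 TPM and then at 41.5, 42.44 and 39.74 TPM (-1.39 ± 0.21, adjusted p = 0.000949). Complement C3 went from 1401.27, 1441.66 and 1449.09 to 632.46, 686.64 and 581.2 TPM (-1.18 ± 0.14, adjusted p = 0.000295). The groups did not overlap in these 3 genes. AFP, the fetal albumin and tumour marker, was at 225.24, 535.9 and 376.39 TPM against 277.45, 104.4 and 147.13 TPM. AFP passed (-1.13 ± 0.36, adjusted p = 0.0325) although its groups overlapped, and it lost the call without combination 2, combination 3, thalidomide 2 or thalidomide 3 (adjusted p up to 0.114). ALB was at 958.71, 1361.56 and 1433.17 TPM against 1258.93, 767.51 and 1064.79 TPM and did not pass (-0.29 ± 0.23, adjusted p = 0.338), but fell after the GC correction (-0.82, adjusted p = 0.000638). Of the 10 hepatocyte markers, 7 fell (4 without combination 3 or thalidomide 2), and their sum was 6304.9 to 8664.3 TPM with thalidomide and 4304.1 to 5389.9 TPM with the combination. Among 20 hepatocyte transcription factors 4 fell and 3 rose, against 7.7% and 26.5% of all genes (5 and 1 with the correction, 2 and 1 without combination 1 or combination 3). Under median-of-ratios scaling 7 fell and 2 rose, against 15.5% and 12.9% of all genes. CEBPA fell from 233.83, 203.75 and 216.72 to 86.58, 116.39 and 93.86 TPM (-1.14 ± 0.12, adjusted p = 0.000108) and FOXA1 by 0.90 ± 0.10. HNF4A, the central factor of hepatocyte identity, was at 50.12, 61.28 and 50.92 TPM against 53.19, 63.28 and 63.76 TPM and did not pass.

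Other large falls came from membrane and metabolic genes. The netrin receptor UNC5B fell from 22.24, 27.09 and 17.03 to 2.85, 3.89 and 2.99 TPM (-2.43 ± 0.23, adjusted p = 6.41e-05). SCNN1A, a subunit of the epithelial sodium channel, fell by 2.12 ± 0.25, and CA4, a membrane-bound carbonic anhydrase, by 2.13 ± 0.35. CKB, brain creatine kinase, went from 1937.46, 2593.91 and 1198.8 to 566.89, 681.35 and 514.17 TPM (-1.64 ± 0.26, adjusted p = 0.0015). The fetal noncoding RNA H19 fell by 1.70 ± 0.37 and SAMD11 by 1.63 ± 0.18. PHGR1 fell from 86.16, 142.09 and 47.68 to 25.55, 16.87 and 13.43 TPM (-2.16 ± 0.40, adjusted p = 0.00331). SNORA57 was listed at 0 in 2 combination libraries and at 8.62 TPM in the other, against 13.4, 27.7 and 10.27 TPM (-2.97 ± 1.05, adjusted p = 0.0452), and did not pass after the GC correction (adjusted p = 0.0607) or in 5 of 6 fits without a library (adjusted p up to 0.157). The cytoskeleton genes ACTB and TUBB were among the most abundant that fell. ACTB was at 4472.11, 3944.21 and 4456.02 TPM and then at 1948.87, 2278.84 and 2016.52 TPM (-1.04 ± 0.10, adjusted p = 5.6e-05), and TUBB fell by 0.94 ± 0.09. In the same list of 23 genes 8 rose and 4 fell, against 26.5% and 7.7% of all genes (1 and 7 under median-of-ratios scaling, against 12.9% and 15.5%). Myosin light chain MYL9 rose by 1.58 ± 0.18.

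Proliferation genes were followed in 2 lists. Of 34 replication genes 9 fell and 1 rose (median -0.20), and 21 fell and 0 rose after the GC correction. Without combination 1 it was 4 and without combination 3 it was 5 that fell. The helicase subunit MCM5 went from 75.42, 69.39 and 84.82 to 39.2, 46.1 and 44.14 TPM (-0.81 ± 0.10, adjusted p = 0.000294), MCM7 fell by 0.66 ± 0.09 and the ligase LIG1 by 0.64 ± 0.10. Of 29 genes of G2 and mitosis 7 rose and 3 fell (median 0.28), which is near the shares of all genes (26.5% and 7.7%), but 1 rose and 8 fell after the GC correction, and 1 to 3 rose without combination 1, combination 3, thalidomide 1 or thalidomide 2 and 12 without combination 2. TTK (1.07), KIF11 (0.82), BUB1 (0.70) and CDK1 (0.70) were the largest of these rises, and with the correction none of the 4 passed (adjusted p = 0.059, 0.197, 0.0716 and 0.801). The median GC content of that list was 45.4%, and that of the replication list 51.4%. MYCN fell from 16.85, 16.17 and 17.26 to 4.5, 5.32 and 4.74 TPM (-1.60 ± 0.17, adjusted p = 0.000135). For the MYC network list as a whole the balance depended on the scaling. Of its 18 genes 4 rose and 1 fell (median 0.14), near the shares of all genes, and 3 rose and 3 fell after the GC correction. Under median-of-ratios scaling 2 rose and 7 fell (median -0.08), against 12.9% and 15.5% of all genes.

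Genes of the proteins that these drugs are known to bind, and of the metal and protein disposal systems around them, were followed next. ALDH2, the mitochondrial enzyme whose loss of activity gives the alcohol reaction of disulfiram, fell from 40.83, 52.25 and 46.24 to 29.65, 31.85 and 32.15 TPM (-0.55 ± 0.09, adjusted p = 0.00186). ALDH1A1 was at 434.78, 564.77 and 510.5 TPM against 605.68, 427.29 and 576.37 TPM and did not pass (0.08 ± 0.18, adjusted p = 0.741), while the GC correction turned it to a fall (-0.37, adjusted p = 0.0207). Of 15 tested aldehyde dehydrogenases 5 fell and 1 rose (median -0.26), 8 fell and 0 rose after the correction, and 2 or 3 fell without combination 1, combination 3 or thalidomide 2. NPLOC4 was at 66.06, 58.48 and 65.71 TPM against 51.76, 61.24 and 60.17 TPM (-0.14 ± 0.09, adjusted p = 0.256). Of 36 genes of the proteasome, p97 and ubiquitin list 17 rose and 0 fell (median 0.28), yet 1 rose and 1 fell after the GC correction, 6 and 3 changed under median-of-ratios scaling, and 4 rose without combination 3, 7 without combination 1, and 10 without thalidomide 1 or thalidomide 2. PSMD12 (0.89 ± 0.23) and PSMA4 (0.89 ± 0.22) had the largest rises of that list and did not pass with the correction (adjusted p = 0.088 and 0.0654). The cereblon gene CRBN was at 11.65, 11.31 and 13.29 TPM against 26.51, 15.33 and 22.2 TPM (0.74 ± 0.24, adjusted p = 0.0322). It did not pass after the GC correction (0.18, adjusted p = 0.35), under median-of-ratios scaling (adjusted p = 0.0767) or without combination 1, combination 3, thalidomide 1 or thalidomide 2 (adjusted p up to 0.13), and of the 16 genes of the cereblon list 5 rose and 0 fell, against 1 and 1 with the correction and 2 and 0 without combination 1, combination 3 or thalidomide 1. Of 24 copper transport and lipoylation genes 5 rose and 3 fell, near the shares of all genes (26.5% and 7.7%) like the rises of the cereblon list, and with the correction 1 rose and 7 fell, while without combination 2 it was 10 and 4 and without any other single library 0 to 3 rose. Of 17 zinc transporters and sensors beyond SLC30A1, 6 rose and 2 fell, also near these shares of all genes. With the correction 0 rose and 5 fell (against 12.2% and 13.6% of all genes), and without combination 1, combination 3 or thalidomide 1 at most 1 rose. The hepatocyte zinc importer SLC39A5 was at 43.44, 47.94 and 34.05 TPM and then at 22.89, 25.78 and 19.21 TPM (-0.85 ± 0.18, adjusted p = 0.00589).

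**Figure D2:**
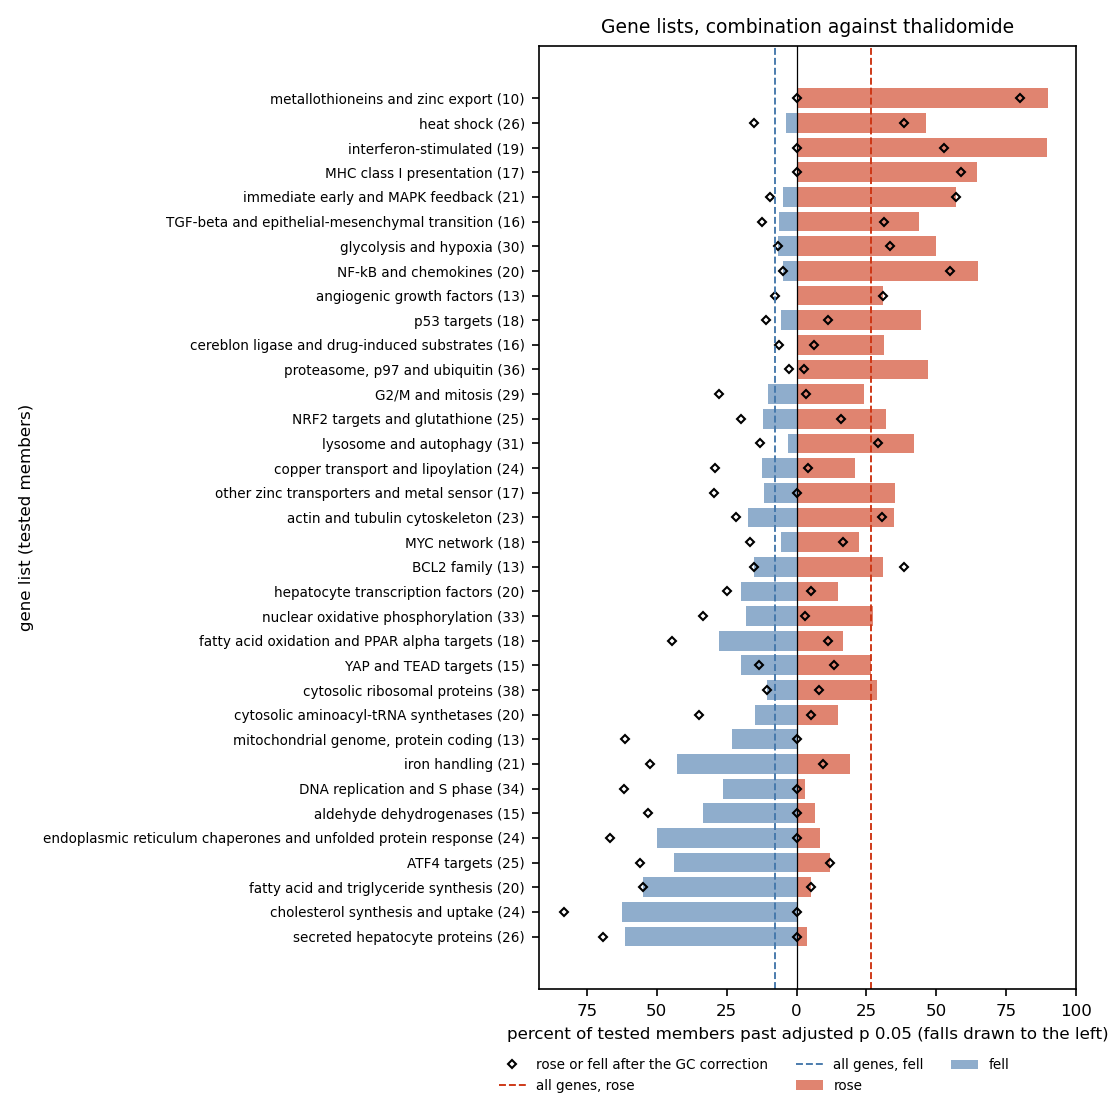
Share of tested members (percent, number tested in parentheses) that rose (right) or fell (left) at an adjusted p below 0.05 in 35 gene lists, with diamonds for the shares after the GC correction. Dashed lines mark all tested genes without the correction (26.5% rose and 7.7% fell) and apply to the bars only. The diamonds are to be read against 12.2% and 13.6% of all genes, which are not drawn. Metallothionein, interferon-stimulated and class I genes keep high shares of rises under the correction, cholesterol and secreted protein genes keep high shares of falls, and the proteasome list drops from 17 rises to 1.

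The same 14566 genes were then set beside disulfiram alone against the DMSO control, which shares no library with the comparison above. Both comparisons came from the same fit over all 12 libraries, so each gene had the same SE in both. A gene with little spread was therefore favoured for a call in both, and the 2 sets of calls are not independent. There 1325 genes rose (9.1%) and 700 fell (4.81%). Called in both and in the same direction were 970 higher and 508 lower genes, together 29.7% of the calls with thalidomide present and 73% of those without it. Of the genes called with thalidomide present, 92.1% had the same sign without it (91.3% of those higher and 95.1% of those lower), against 74.2% of all tested genes. Across the 14566 genes the fold changes of both comparisons gave a Pearson's r of 0.64 and a Spearman's rho of 0.572, and r was 0.723 on GC-corrected values. All 12 libraries come from 1 cell line and 1 table, and genes are not independent replicates, so this is a description. The 2 fold changes are given side by side for some of the genes with large changes. CRYAB rose by 6.25 ± 0.26 without thalidomide and 6.59 ± 0.26 with it, HSPA6 by 5.48 ± 0.18 and 5.77 ± 0.18, and MT1M by 5.34 ± 0.31 in both. MT1B was listed at 0 in the 3 control libraries and reached a mean of 157 ± 23.8 TPM (SD, n = 3) with disulfiram, against 169 ± 25.4 TPM with the combination. PHGDH fell by 1.47 ± 0.11 and 1.39 ± 0.11. HAMP fell by 2.42 ± 0.42 without and 3.90 ± 0.42 with thalidomide, from a mean of 80.6 ± 58.2 TPM in control and 209 ± 89.4 TPM with thalidomide to 12 ± 2.58 and 12.3 ± 1.78 TPM. FOS rose by 1.46 ± 0.19 without and 2.52 ± 0.19 with it. By list, 7 of 10 metallothionein genes rose without thalidomide and 9 with it, 8 and 12 of 26 heat shock genes, 11 and 17 of 19 interferon-stimulated genes, and 12 and 11 of 17 class I genes. Falls numbered 18 and 15 of 24 cholesterol genes, 17 and 11 of 25 ATF4 targets, 15 and 12 of 24 endoplasmic reticulum genes, and 7 and 16 of 26 secreted protein genes. The proteasome list had 1 rise without thalidomide and 17 with it, but 1 with it after the GC correction. With thalidomide that correction gave 8 metallothionein, 10 heat shock, 10 interferon-stimulated and 10 class I rises. It gave 20 cholesterol, 14 ATF4 target, 16 endoplasmic reticulum and 18 secreted protein falls. The shares of all genes differed as well, at 9.1% and 4.81% without thalidomide and 26.5% and 7.7% with it. These counts were not tested against each other. The shared calls fell from 1478 to 917 without disulfiram 3, 922 without control 1 and 981 without combination 3.

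**Figure D3:**
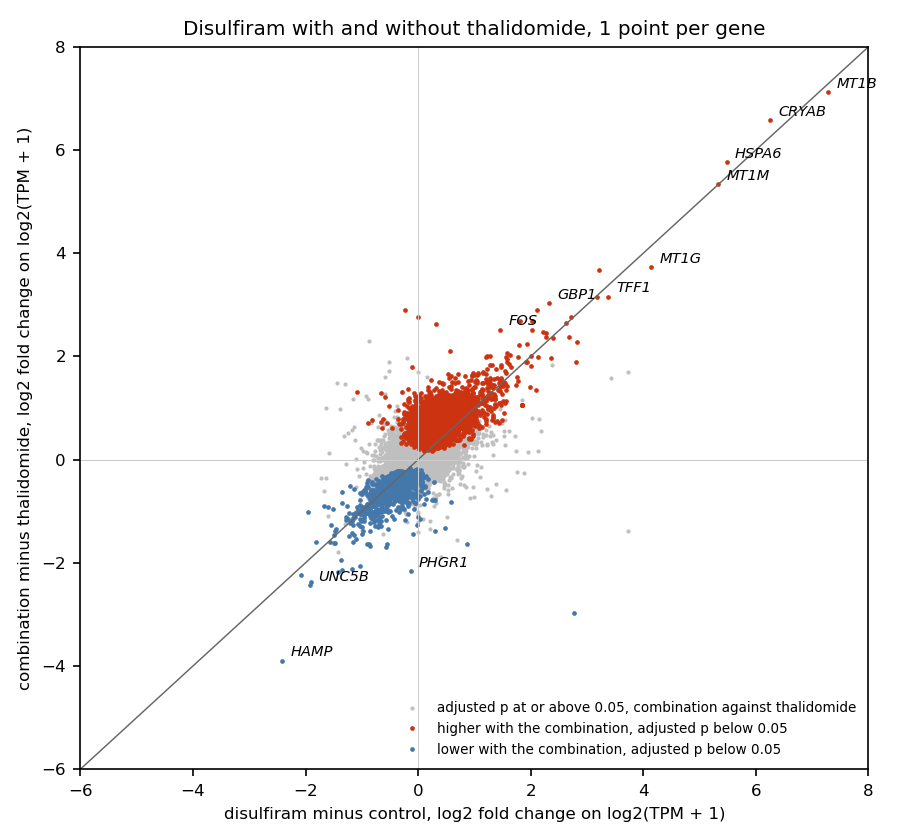
Each point is 1 of 14566 genes, with its log2 fold change for disulfiram against control on the horizontal and for combination against thalidomide on the vertical axis, and a diagonal where both are equal. MT1B (listed at 0 in all controls), CRYAB, HSPA6 and MT1M lie near the diagonal at the upper right, and PHGR1 lies near 0 on the horizontal axis and at -2.16 on the vertical one.

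Whether disulfiram did something different with thalidomide present was tested as the interaction, the difference between both fold changes. In limma 0 genes (0%) passed an adjusted p below 0.05, and the smallest adjusted p was 0.06. Of the 14566 genes tested, 1557 had an unadjusted p below 0.05, so the lack of calls does not show that no gene differed. With array weights 21 genes passed, and 1 passed in each of several other settings, among them the GC correction, median-of-ratios scaling and the fit without control 3. The smallest adjusted p belonged to RDM1, named for a motif shared with the recombination factor RAD52. RDM1 fell with thalidomide present (5.67, 7.06 and 5.41 to 2.82, 3.16 and 2.98 TPM, -0.82 ± 0.12) and rose without it (from a mean of 4.84 ± 0.262 to 7.72 ± 0.487 TPM, 0.58 ± 0.12). Its interaction was -1.39 ± 0.18. It was 1 of 3 features called in opposite directions, with ANKRD44 (0.71 and -0.90) and 1 assembled locus without a gene name (0.61 and -0.63). The next smallest p-values were those of ZNF222 (1.23 ± 0.14 with thalidomide and 0.12 ± 0.14 without) and FIP1L1 (0.72 ± 0.13 and -0.26 ± 0.13). Some of the largest changes with thalidomide present were near 0 without it, among them PHGR1 (-2.16 and -0.13) and BOLA2 (2.89 and -0.22), but their interactions did not pass (adjusted p = 0.45 for both). So a gene that passed in 1 comparison and missed in the other is not shown to differ between them.

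**Figure D4:**
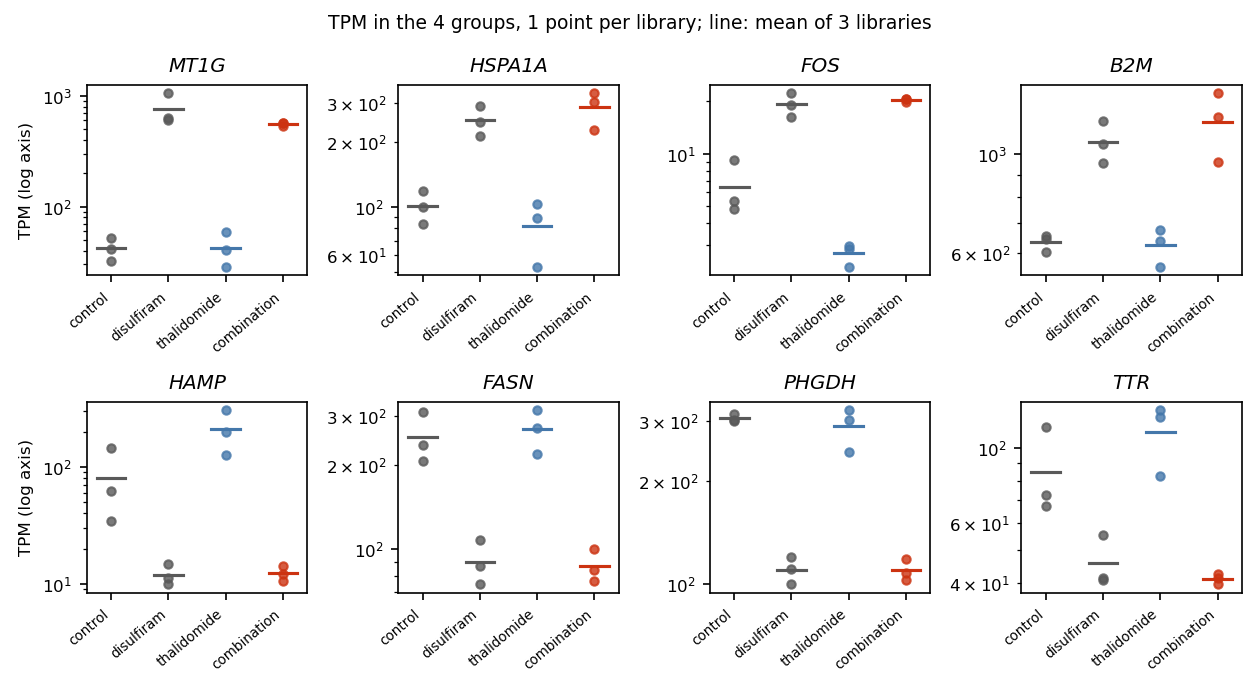
TPM on a log axis of 8 genes in the 4 groups, 1 point per library and a line at each mean of 3. Disulfiram and combination libraries lie above control and thalidomide libraries for MT1G, HSPA1A, FOS and B2M and below them for HAMP, FASN, PHGDH and TTR.

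The fold changes followed the GC content of the transcripts. Across 14284 genes with a value, Spearman's rho between GC content and the fold change was -0.51 for combination against thalidomide and 0.01 for disulfiram against control. Genes with at most 40% GC had a median fold change of 0.62 and 46.9% of them rose, whereas genes over 60% GC had a median of -0.07 and 9.48% rose, with 17.5% falling. For disulfiram against control the medians of these 2 groups of genes were 0.10 and 0.09. Within the combination group, a gene's deviation from the group mean followed its GC content with rho -0.62, 0.69 and -0.40 in the 3 libraries, so the second library stood apart from the others. In the disulfiram group rho was -0.51, 0.63 and -0.32, so there too the second library stood apart, and in the thalidomide group it was 0.50, -0.07 and -0.41. Abundant genes rose less, with a median of 0.30 for genes up to 5 TPM and -0.02 for those over 100 TPM. Transcripts of the 13 protein-coding genes of the mitochondrial genome took 8.24%, 10.3% and 8.56% of all TPM with the combination and 10.7%, 10.9% and 10.2% with thalidomide. The part of this trend in the counts above, beyond the corrected values given beside them, was not tested.

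**Figure D5:**
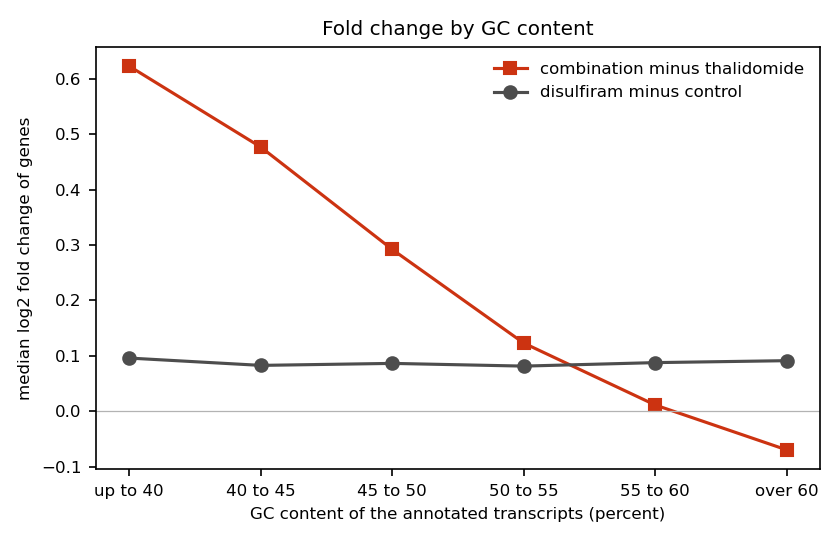
Median log2 fold change of genes in 6 classes of GC content (percent), for combination against thalidomide (squares) and disulfiram against control (circles). The squares go from 0.62 at the lowest to -0.07 at the highest GC content, and the circles stay between 0.08 and 0.10.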

How the data were processed

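RNA was measured in 12 libraries of the Huh7 cell line, 3 each for DMSO control, disulfiram, thalidomide and both drugs, and grouped by the labels. The authors deposited 1 table of TPM. HISAT2 2.0, StringTie 1.3.0 and hg38 appear, without their roles, in the submitters' processing notes, and annotation, strand and filters are not stated. TPM keeps no read counts, so depth is unknown and counting error could not be computed. Names and coordinates came from GENCODE 29 (hg38), which holds 58611 of 58884 Ensembl identifiers, and 307 further features are assembled loci without one. From the deposited TPM, log2(TPM + 1) was fitted with limma 3.58.1 (R 4.3.3) and its mean-variance trend, with 4 group means over all 12 libraries, two-sided tests, Benjamini-Hochberg adjustment over 14566 genes and a threshold of 0.05. The pseudocount makes fold changes of low genes smaller than the ratio of their means. Libraries of the combination and thalidomide groups that share a number deviated together with r of -0.218, -0.004 and 0.164, so numbers were not taken as pairs. This check did not cover the disulfiram and control libraries. The second disulfiram and second combination libraries deviated alike with GC content, as given above, and what a shared number stands for is not known.

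Genes to name were the 14 largest rises and 14 largest falls past the threshold with a mean TPM of at least 5 in 1 group, no overlap of libraries and a plain symbol. To these were added up to 4 called members per list with the largest change (or the 2 most abundant where none passed), 3 genes for the interaction, and ALDH2, ALDH1A1, NPLOC4, CRBN, ALB and AFP. Some genes this rule picks are not reported here. Other members are named by role and were chosen after their values were seen. The members, lists and rules were chosen with earlier results of these data known. The GC correction removed a lowess trend (span 0.3) of each library on transcript GC content. Alternatives were other scalings, filters and pseudocounts, array weights, a replicate block and leaving out each library, and the removal of the second disulfiram and second combination libraries was added after seeing the data. The fit was also run on simulated data with known changes and independent normal noise. These held no GC trend, shift in scaling or library effect, so they say nothing of how those move the calls.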

Additional observations from a re-analysis of the deposited data

How the results depend on the processing

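Against 3854 genes higher and 1121 lower, the counts were 1784 and 1981 with the GC correction, 1881 and 2258 with median-of-ratios scaling, 1775 and 2052 with quantile normalization, 6363 and 2027 with array weights, and 1664 and 1815 with the replicate block and the GC correction together. Leaving out 1 library gave 1674 to 4531 higher and 596 to 1316 lower genes. The replicate block alone gave 3666 and 1045. Shared calls with disulfiram against control were 1478, 2932 with array weights, and 917 to 1612 with 1 library left out. The interaction called 0 genes, 21 with array weights, and 1 each with median-of-ratios scaling, the GC correction, quantile normalization, no mean-variance trend, a pseudocount of 0.1, the replicate block with the GC correction, and the removal of the second disulfiram and second combination libraries. With 1 library left out it called 0 to 1, the 1 without control 3. Removing those 2 libraries gave 5041 higher and 1410 lower genes. Same-numbered combination and thalidomide libraries did not each correlate best with their own number. Of 157 named genes past the threshold, 106 kept the call under each of the 24 alternatives that tested them. UQCRB turned to -0.024 with the GC correction, with or without the block. ALDH1A1, which did not pass, turned to -0.37 with the GC correction (with or without the block), -0.15 with median-of-ratios scaling, -0.012 without combination 1 and -0.0178 without thalidomide 1, and ranged from -0.0178 to 0.239 with 1 library left out. The cause of these shifts was not tested. Depth is unknown, so nothing can be said of genes near 0 beyond their listed values.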

Other observations

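The remaining lists are read against the 26.5% of all genes that rose and the 7.7% that fell, or 12.2% and 13.6% after the GC correction. Of 25 NRF2 targets and glutathione genes 8 rose and 3 fell (4 and 5 after the GC correction, 3 and 3 without combination 1 or combination 3), which is near those shares. The thioredoxin reductase TXNRD1 rose from 24.4, 24.99 and 32.92 to 60.8, 43.2 and 61.8 TPM (0.98 ± 0.25, adjusted p = 0.0122) and GCLC, of glutathione synthesis, by 0.84 ± 0.20. TXNRD1 did not pass without combination 1 or combination 3 (adjusted p up to 0.0521). PGD, of the pentose phosphate pathway, fell from 287.18, 312.83 and 289.84 to 177.87, 185.12 and 171.78 TPM (-0.73 ± 0.08, adjusted p = 0.000217). Of 13 genes of the BCL2 family 4 rose, also near the share of all genes, and 2 fell, among the rises the BH3-only genes BIK (1.43 ± 0.19) and PMAIP1 (1.31 ± 0.27) and the survival gene MCL1 (0.55 ± 0.09), while BCL2L1 fell by 0.42 ± 0.12, a call lost in 4 of 6 fits without a library (adjusted p up to 0.0866). BIK was at 4.74, 6.49 and 4.89 TPM with thalidomide and at 15.89, 18.19 and 14.44 TPM with the combination. Of 31 lysosome and autophagy genes 13 rose and 1 fell (9 and 4 after the GC correction), with BECN1 rising from 33.45, 34.12 and 37.83 to 65.6, 58.27 and 65.13 TPM (0.82 ± 0.10, adjusted p = 0.000328). Of 18 p53 targets 8 rose and 1 fell, but 2 and 2 with the correction, and 1 to 8 rose with 1 library left out (lowest without combination 3 or thalidomide 1). Of 16 TGF-beta and epithelial-mesenchymal transition genes 7 rose and 1 fell (5 and 2 with the correction). The angiogenic peptide gene ADM rose from 33, 42.04 and 31.48 to 75.51, 74.14 and 68.61 TPM (1.02 ± 0.15, adjusted p = 0.000777).

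In the lists of nuclear oxidative phosphorylation, ribosomal protein and aminoacyl-tRNA synthetase genes the balance of rises and falls depended on the scaling. Of 33 nuclear oxidative phosphorylation genes 9 rose and 6 fell, against 1 and 11 with the GC correction and 3 to 5 rises without combination 1, combination 3 or thalidomide 1. ATP5MC1, a subunit of ATP synthase, fell from 380.36, 311.92 and 356.47 to 197, 233 and 191.02 TPM (-0.75 ± 0.12, adjusted p = 0.00119). Of the 13 protein-coding genes of the mitochondrial genome 3 fell and 0 rose (median -0.10), against 8 and 0 with the correction (median -0.52), 7 and 0 under median-of-ratios scaling (median -0.33), 2 and 0 without combination 1, combination 3 or thalidomide 2, and 6 and 0 without combination 2. MT-ND3 was at 7141.82, 6430.2 and 6212.98 TPM and then at 3902.21, 5409.03 and 4115.26 TPM (-0.57 ± 0.11, adjusted p = 0.00409). Of 38 cytosolic ribosomal protein genes 11 rose and 4 fell, and 3 rose and 10 fell under median-of-ratios scaling and 4 rose and 1 fell without combination 3. RPS24 rose by 0.74 ± 0.15 and RPS2 fell by 0.53 ± 0.07. Of 20 cytosolic aminoacyl-tRNA synthetases 3 rose and 3 fell, 1 and 7 with the GC correction and 3 and 7 under median-of-ratios scaling, and 1 rose without combination 1, combination 3 or thalidomide 1. Of 15 YAP and TEAD targets 4 rose, near the share of all genes, and 3 fell (median 0.06), and 2 rose and 2 fell after the GC correction. Median-of-ratios scaling gave 2 rises and 5 falls (median -0.15), against 12.9% and 15.5% of all genes. CTGF fell from 208.49, 143.71 and 255.41 to 106.74, 106.77 and 102.33 TPM (-0.90 ± 0.20, adjusted p = 0.00702). ANKRD1 fell by 0.57 ± 0.16, but not without thalidomide 3 (adjusted p = 0.0566). F3 of the same list rose by 0.65 ± 0.19 (adjusted p = 0.0242), but did not pass after the GC correction (adjusted p = 0.334).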
